A study of Saccharomyces cerevisiae with 3 samples.

Results

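Genes shorter than 500 bp were defined as the nuclear protein-coding genes of the RefSeq R64 table whose span from first to last annotated base is under 500 bp. This gave 893 of 6002 genes, and the rule uses gene length alone. The shortest spans 51 bp and the median was 342 bp (quartiles 255 and 420 bp). A standard gene name was carried by 563 of them (median 372 bp), and 330 had a systematic name alone (median 304.5 bp). The named genes include ribosomal proteins, histones, small subunits of the respiratory chain, Sm proteins and pheromones. The span includes introns, so many intron-bearing genes, most ribosomal protein genes among them, are longer than the limit, while some short genes such as VMA9 and RUB1 carry one.

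The cells were budding yeast, Saccharomyces cerevisiae, of strain BY4741, a laboratory haploid of mating type a, in mid-log growth in YEPD, a rich glucose medium, and fixed with formaldehyde. Chromatin was cut with MNase, a nuclease that digests the DNA between nucleosomes, and precipitated with an antibody against H3K4me2 or H3K4me3, the forms of histone H3 with a pair of methyl groups or a trio of them on lysine 4. The series has 3 samples, namely 1 library per mark and 1 input with no peak list, all from the same strain, medium and growth phase. With 1 library per mark there is no replicate check and no test was run. The 95% intervals are exact (Clopper-Pearson) and cover counting error only, and they treat neighbouring genes as independent although these can share a peak.

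In yeast both marks are made by Set1, the catalytic subunit of COMPASS, which travels with RNA polymerase II early in transcription. H3K4me3 is known to sit on the first nucleosomes of transcribed genes and H3K4me2 further into the gene body. A gene of under 500 bp has room for few nucleosomes before its stop codon, and yeast genes lie close together, so a peak over a short gene can also lie over the start of its neighbour.

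The authors' lists held 3714 H3K4me3 peaks with 1644589 tags inside them and 2998 H3K4me2 peaks with 1492318 tags, and the depth outside peaks is unknown. Tags, fold enrichment and score are the authors' own values for a whole peak, and no fold of one list was set against a fold of the other. The narrowest peak spanned 382 bp for H3K4me3 and 443 bp for H3K4me2, so a peak centred on a short gene usually reaches past it. In a mixture of cells, fewer cells with a mark and less of it per cell cannot be told apart.

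H3K4me3 covered at least 50% of 299 of the 893 short genes (33.5%, interval 30.4 to 36.7%), where 64.6% of all 6002 genes had the mark over at least 50% of their first 500 bp (of the whole gene where shorter). H3K4me2 covered 109 short genes (12.2%, interval 10.1 to 14.5%) against 43.5% of all genes. Genes of 500 to 1000 bp (here and below, an upper limit is not included) had H3K4me3 in 71.5% and H3K4me2 in 41.5%. Both marks were thus less frequent over short genes than over the next longer class, by more than the counting intervals. The ratio of the 2 marks differed over these stretches, which are the whole of a short gene but the first 500 bp of a longer one. Among genes with H3K4me3 counted in this way, 77 of 299 short ones had H3K4me2 too (25.8%, interval 20.9 to 31.1%). This was so for 50.6% of those of 500 to 1000 bp and 67.3% of those of at least 1000 bp.

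In all, 77 short genes had both marks (8.62%, against 38.4% of all genes), 222 had H3K4me3 alone (24.9%), 32 had H3K4me2 alone (3.58%) and 562 had neither (62.9%). Of all 6002 genes, 3880 had H3K4me3, 2613 had H3K4me2 and 2307 had both. By these counts H3K4me3 alone was about as frequent in short genes as in all genes, and H3K4me2 alone was no more frequent. No base lay under a peak of either list in 519 short genes (58.1%). Most short genes were either wholly inside a peak or wholly outside: H3K4me3 touched 332 genes, covered 299 by 50% and held the whole of 264. For H3K4me2 these counts were 132, 109 and 75.

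The start codon is a point that every gene has whatever its length. The first base of the start codon lay under H3K4me3 in 296 short genes (33.1%), against 59.6% of all genes, and under H3K4me2 in 92 (10.3%), against 20.3% of all genes. In genes of 500 to 1000 bp these shares were 62.6% and 19.0%. At this point the ratio of the 2 marks was thus similar in short genes and in the next longer class. The share with H3K4me3 over the start codon was 9.70% under 200 bp (13 of 134 genes), 28.5% from 200 to 300 bp, 32.3% from 300 to 400 bp, 45.8% from 400 to 450 bp and 51.0% from 450 to 500 bp. Above the limit it was 61.5% from 500 to 550 bp and lay between 62.2 and 66.9% in the 6 longer classes. The share was thus higher in each longer class of short genes and varied little above 550 bp. For H3K4me2 over the start codon the share was 7.46% under 200 bp, 12.9% from 450 to 500 bp, 13.1% from 500 to 550 bp and 22.5% from 1000 to 1500 bp, so it was higher in longer genes also where that of H3K4me3 was nearly level.

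**Figure D1:**
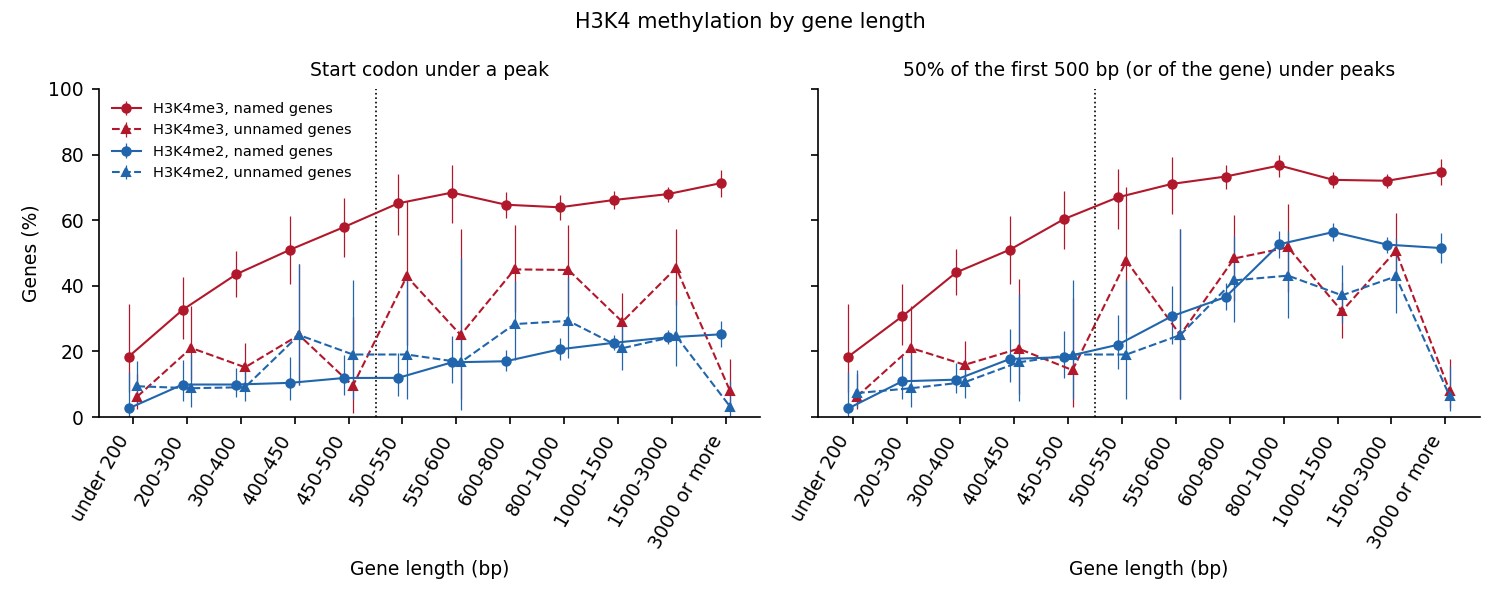
Percent of named and of unnamed genes (y axis) covered by each mark in 12 length classes (bp, x axis), at the start codon on the left and over 50% of the first 500 bp or of a shorter gene on the right, with exact 95% intervals and a dotted line at 500 bp. On the right, H3K4me3 in named short genes goes from 18.4% under 200 bp to 60.3% at 450 to 500 bp, while unnamed short genes stay between 6.25 and 21.1%.

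Of the 3 longest short genes, GOT1 (YMR292W), which acts in transport between the endoplasmic reticulum and the Golgi, had neither mark. MMS2 (YGL087C), a partner of a ubiquitin-conjugating enzyme in DNA damage tolerance, was 87.0% covered by an H3K4me3 peak of fold 2.7. APC11 (YDL008W, 498 bp), the RING subunit of the anaphase-promoting complex, lay in an H3K4me3 peak of fold 3.02. Of the first 3 genes from 500 bp, all of 501 bp, BUD20 (fold 3.41) and IES6 (fold 2.86) had H3K4me3 and UTR5, covered over 7.4%, did not.

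Named and unnamed short genes differed mainly in H3K4me3. It was on 252 of 563 named genes (44.8%, interval 40.6 to 49.0%) and on 47 of 330 unnamed genes (14.2%, interval 10.7 to 18.5%). H3K4me2 was on 75 named genes (13.3%, interval 10.6 to 16.4%) and on 34 unnamed genes (10.3%, interval 7.24 to 14.1%), intervals that overlap. Neither mark was on 293 named genes (52.0%) and on 269 unnamed genes (81.5%). Of the genes with H3K4me3, 57 of 252 named ones (22.6%) and 20 of 47 unnamed ones (42.6%) had H3K4me2 as well.

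The gap between named and unnamed genes was present within length classes. From 450 to 500 bp H3K4me3 was on 76 of 126 named genes (60.3%) and 3 of 21 unnamed ones (14.3%). From 300 to 400 bp it was on 89 of 202 named genes (44.1%) and 21 of 132 unnamed ones (15.9%). In named genes the share was higher in each longer class, starting at 18.4% under 200 bp, and in unnamed genes it lay between 6.25 and 21.1% in the 5 classes with no steady order. Unnamed genes of 500 to 550 bp had it in 10 of 21 cases (47.6%).

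Position on the chromosome and overlap with other genes also went with the mark. Here and below, a chromosome end is the outer edge of the first or last annotated protein-coding gene. Of the 85 short genes within 25 kb of a chromosome end, 5 had H3K4me3 (5.88%), all of them named, and 0 of the 48 unnamed ones did, which by a limit of 3 counts allows a share of up to 6.25%. Of these 85 genes, 19 are members of the PAU family read below, and none of the 19 had either mark. How reads that match several family members were treated is not given, and its part here was not tested. Away from the ends H3K4me3 was on 247 of 526 named genes (47.0%) and 47 of 282 unnamed genes (16.7%). Of the 74 short genes that overlap another gene, 35 had H3K4me3 (47.3%), against 264 of the 819 others (32.2%). In unnamed genes this was 15 of 41 overlapping (36.6%) and 32 of 289 not overlapping (11.1%). Among named genes away from the ends and free of overlap, the start codon still had H3K4me3 in 21.2% under 200 bp (7 of 33) and in 60.4% from 450 to 500 bp (67 of 111), so the order by length was present there too.

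Many peaks over short genes also reached the start of a longer gene. Of the 299 short genes with H3K4me3, 103 (34.4%, interval 29.1 to 40.1%) lay under a peak that also held the start codon of another gene of at least 500 bp, where this was so for 10.9% of all genes with H3K4me3. Of the 109 with H3K4me2 it was so for 32 (29.4%, with an interval whose upper bound is 38.9%), against 2.91% of all genes with H3K4me2. Among genes of 500 to 1000 bp the shares were 13.7% and 4.44%. Counting the peaks without a longer start, called own peaks here, 196 short genes (21.9%) had an own H3K4me3 peak and 77 (8.62%) an own H3K4me2 peak.

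The split depends on peak width and on what counts as shared. When each peak was replaced by 500 bp around its summit, the shared part of the marked short genes was 4.57% for H3K4me3 and 1.59% for H3K4me2. Because H3K4me2 often begins downstream of a start codon, a wider definition chosen after seeing the data also counted peaks over at least 50% of the first 500 bp of a longer gene. By it, 113 of 299 H3K4me3 genes (37.8%) and 56 of 109 H3K4me2 genes (51.4%) shared their peak. This leaves 186 and 53 short genes whose peak reached no longer start. Such a peak may reach the start of another short gene, as it did for 23 of the 196 genes with an own H3K4me3 peak.

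Unnamed genes shared their H3K4me3 peak more often. It held a longer start for 25 of 47 unnamed genes (53.2%, interval 38.1 to 67.9%) and for 78 of 252 named ones (31.0%, interval 25.3 to 37.1%). An own H3K4me3 peak was present at 174 of 563 named genes (30.9%) and at 22 of 330 unnamed genes (6.67%). For H3K4me2, an own peak was present at 55 named genes (9.77%) and at 22 unnamed genes (6.67%).

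**Figure D2:**
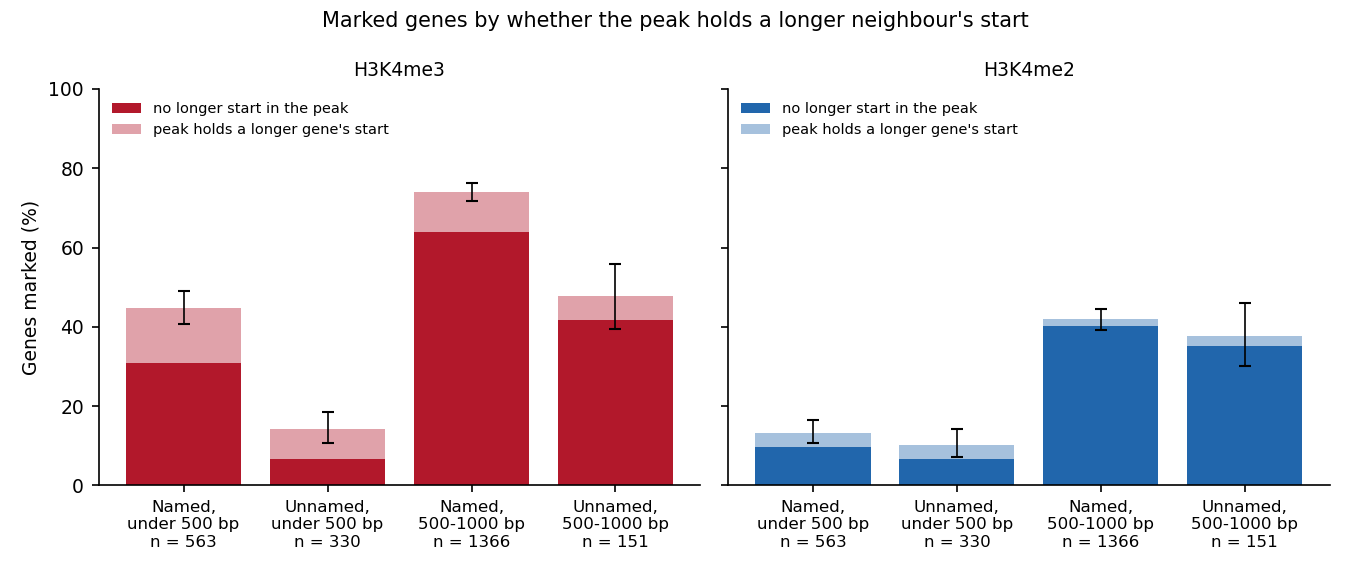
Percent of named and unnamed genes under 500 bp and of 500 to 1000 bp (x axis) that were marked (y axis), with bars stacked by whether the peak was own (dark) or also held a longer gene's start (pale), and exact 95% intervals on the total. An own H3K4me3 peak lies over 30.9% of named and 6.67% of unnamed short genes.

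The 103 short genes with a shared H3K4me3 peak formed 127 pairs with a longer gene whose start the peak held, some longer genes being part of more than 1 pair, and in 126 pairs the longer gene counted as marked itself. In 43 pairs the longer gene lay downstream on the same strand, with a median of 528 bp between the starts. In 39 pairs both genes were transcribed away from each other, with a median of 236 bp between the starts. In 36 pairs the longer gene's start lay downstream on the opposite strand, with a median of 1081.5 bp. In the other 9 the longer gene lay upstream on the same strand. The 32 H3K4me2 pairs were ordered differently, with 17 pairs whose longer start lay downstream on the opposite strand (median 1155 bp), 7 divergent ones, 6 with the longer gene downstream on the same strand and 2 with it upstream.

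The exception among the 127 pairs was HYP2 (YEL034W, chromosome V, 85676 to 86149, 474 bp), which encodes translation factor eIF5A. Its H3K4me3 peak of fold 4.4 with 486 tags (85509 to 86376) holds the start of the divergent UTR5, 131 bp away, of whose first 500 bp H3K4me3 covers 7.4%. At CHZ1 (YER030W, chromosome V, 213437 to 213898, 462 bp), a chaperone of the histone variant H2A.Z, a peak of fold 4.0 with 778 tags also holds the start of YPT31, a Rab GTPase gene 1310 bp away, and its summit lies 905 bp from the CHZ1 start. The unnamed YCR087C-A (chromosome III, 264006 to 264467) shares a peak of fold 4.23 with CSM1, a subunit of monopolin. YJR112W-A (chromosome X, 637790 to 638168) shares one of fold 3.99 with 1080 tags with both NNF1, a kinetochore protein, and RSM7, a mitochondrial ribosomal protein. The summit of a shared peak lay inside the short gene in 32 of 103 cases, upstream of its start in 33 and beyond its stop in 38. A shared peak has to reach another start, and the median width was 1502 bp. The split itself therefore bears on where these summits lie.

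Own H3K4me3 peaks, which by definition reach no longer start, were mostly centred on the short gene itself. The summit lay inside the gene in 177 of 196 cases (90.3%), at a median of 202 bp from the start codon (quartiles 137 and 303.5 bp), and the peak held the whole gene in 182 (92.9%). The median peak began at position -134.5 relative to the start codon, close to that of genes of at least 1000 bp (-131), and ended 147.5 bp beyond the stop codon. Its median width was 696 bp, against 890 bp in genes of 500 to 1000 bp and 1022 bp in longer ones, and its median summit was closer to the start than in these (321 and 296 bp).

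Fold enrichment of own H3K4me3 peaks was the same at the median over short genes (3.1, range 2.22 to 4.7) as over the whole list (3.09, range 1.85 to 4.79). The tags were fewer, with a median of 270.5 in own peaks over short genes and 391 over the whole list. Of the 196 short genes with an own peak, 68 (34.7%) had one with a score under 100, close to the lowest of the list (50.09). Among genes with an own peak this was so for 14.4% of those of 500 to 1000 bp and 15.9% of those of at least 1000 bp. Own peaks over short genes thus lay nearer to the limit of detection, and whether short genes without a peak had less H3K4me3 or fell below that limit was not tested.

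**Figure D3:**
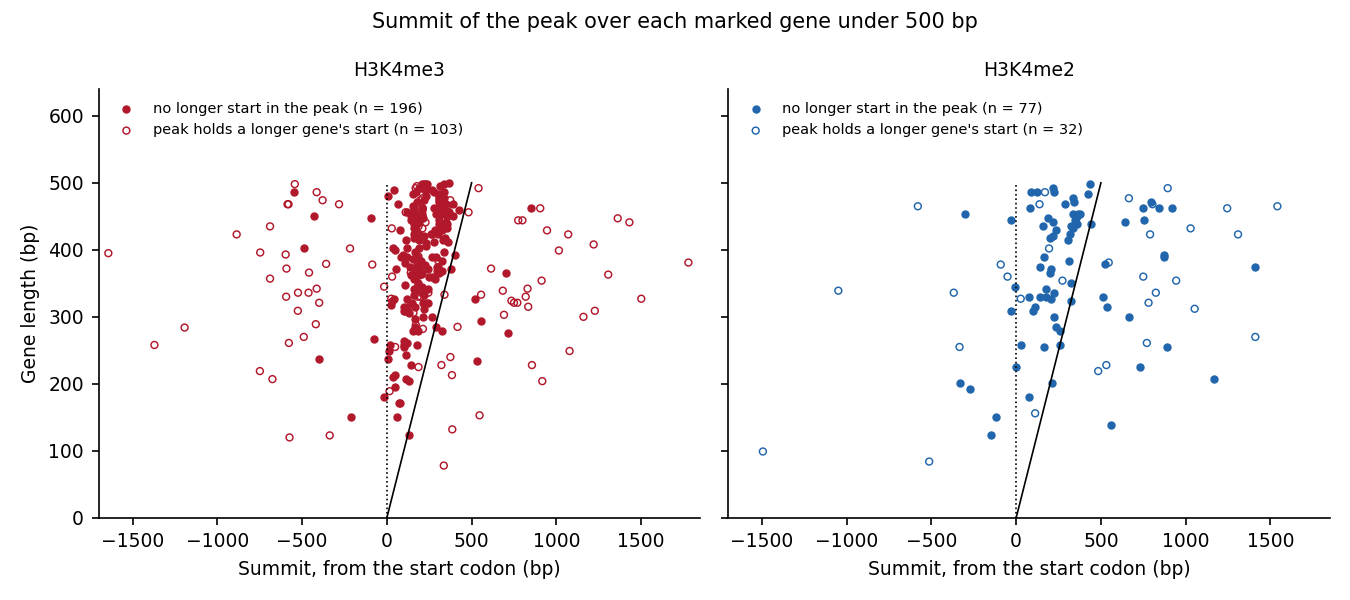
Summit position in bp from the start codon (x axis) against gene length in bp (y axis) for short genes with an own peak (filled points) and with a peak shared with a longer gene (open points), for each mark; the dotted line is the start codon and the solid line the stop codon. Own H3K4me3 summits fall inside the gene in 177 of 196 cases, and shared ones in 32 of 103, where the split itself rests on how far the peak reaches.

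Own H3K4me2 peaks were centred on the gene less often, but more of them also lay over a longer neighbour. By the wider definition of sharing given above, 53 of the 77 genes with an own H3K4me2 peak still had an unshared one. For H3K4me3 it was 186 of 196. The summit and offset counts here do not separate these peaks. The summit was inside the gene in 49 of 77 cases (63.6%), beyond the stop codon in 20 and upstream in 8, and the peak held the start codon in 61 (79.2%). In genes of 500 to 1000 bp and of at least 1000 bp, own H3K4me2 peaks held the start codon in 44.5% and 44.6%, and their summits lay at medians of 508.5 and 595.5 bp, beyond the end of any short gene. In short genes the median summit was at 261 bp. A short gene had to be covered over 50% of its own length, and a longer gene over 50% of its first 500 bp. This rule itself keeps the counted peaks of short genes closer to the start codon. Where both peaks were own, the H3K4me2 summit lay downstream of the H3K4me3 summit in 23 of 33 short genes (69.7%, interval 51.3 to 84.4%), with a median offset of 13 bp (quartiles -7 and 156 bp). The offset was 186 bp in genes of 500 to 1000 bp (83.3% downstream, n = 456) and 314.5 bp in longer genes (90.3% downstream, n = 1554). Both peaks had to cover 50% of the same short gene to be counted, which itself keeps the offset small.

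The own H3K4me3 peak of highest fold lay at MIX17 (YMR002W, chromosome XIII, 272193 to 272663, 471 bp), which encodes a mitochondrial intermembrane space protein. Its peak (272007 to 272867) had a fold of 4.7 with 465 tags, and an H3K4me2 peak of fold 2.5 lay over the gene too. ATP14 (YLR295C, chromosome XII, 721999 to 722373, 375 bp), a subunit of ATP synthase, had an H3K4me3 peak of fold 4.41 with 383 tags and no H3K4me2. ZEO1 (YOL109W, chromosome XV, 110297 to 110638), a plasma membrane protein, also had a fold of 4.41.

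The other members of this top set reached similar folds. CPR1 (YDR155C, chromosome IV, 768512 to 769000), which encodes cyclophilin A, had a fold of 4.39 with 509 tags. BUR6 (YER159C, chromosome V, 491530 to 491958), a subunit of the transcription regulator NC2, had an H3K4me3 fold of 4.19 and an H3K4me2 peak of fold 2.79. CPP1 (YBR016W, chromosome II, 270247 to 270633) had an H3K4me3 fold of 4.02 with 326 tags and no H3K4me2. So 2 of these 6 genes, MIX17 and BUR6, had both marks.

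The shortest genes with an own H3K4me3 peak filled a small part of it. PMP1 (YCR024C-A, chromosome III, 162945 to 163067), a small regulator of the plasma membrane proton pump, and the unnamed YCR024C-B (162599 to 162865, 267 bp) lay together under 1 peak of fold 3.14 with 291 tags (162539 to 163278), so its tags cannot be divided between them. YDR169C-A (chromosome IV, 150 bp) had an H3K4me3 fold of 2.22 and an H3K4me2 fold of 2.13. YKL096C-B (chromosome XI, 259073 to 259222, 150 bp) was covered over 76.7% by a peak of fold 3.64 whose summit lay 214 bp upstream of its start. RPS29A (YLR388W) and RPS29B (YDL061C), copies of the same ribosomal protein gene of 171 bp each, had folds of 3.0 and 3.67.

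Unnamed genes with an own H3K4me3 peak were few, and the highest folds were those of YMR181C (3.71), YKL096C-B (3.64), YDL012C (3.6), YOL014W (3.39) and YCR024C-B (3.14). YMR181C (chromosome XIII, 623616 to 624080) lay in an H3K4me2 peak of fold 3.38 that also held the start of RGM1, a zinc-finger repressor gene. YOL014W (chromosome XV, 299693 to 300067) had an own H3K4me2 peak of fold 2.74 with 198 tags.

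The H3K4me2 peaks of highest fold over short genes included several without H3K4me3. NKP2 (YLR315W, chromosome XII, 764808 to 765269), a kinetochore protein, had an H3K4me2 fold of 3.31 with 762 tags and an H3K4me3 fold of 3.27, and its H3K4me2 peak also covered at least 50% of the first 500 bp of TAD3. MBB1 (YJL199C, chromosome X, 59856 to 60182) had an H3K4me2 fold of 3.18 with 272 tags and no base under H3K4me3. AUA1 (YFL010W-A, chromosome VI, 114990 to 115274) had an H3K4me2 fold of 3.14 and lay in an H3K4me3 peak of fold 3.75 that it shared with WWM1. TOS6 (YNL300W, chromosome XIV, 65744 to 66052), a cell wall protein, had both marks in own peaks, with folds of 3.12 for H3K4me2 and 2.92 for H3K4me3.

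The peak of highest fold in the whole H3K4me2 list, 4.09 with 1092 tags, lay over LSM3 (YLR438C-A, chromosome XII, 1013909 to 1014178, 270 bp), a ring subunit that binds RNA in splicing and decay. Its summit was 1411 bp from the LSM3 start and 1142 bp beyond its stop. It also held the start of CAR2, an arginine catabolism gene 1677 bp away, and an H3K4me3 peak of fold 3.75 over LSM3 held the start of the divergent MRPL4, 313 bp away. MMO1 (YKL044W) lay under peaks of both marks, with folds of 3.2 for H3K4me2 and 3.03 for H3K4me3, that held the start of PHD1, a transcription factor gene of pseudohyphal growth. AIM29 (YKR074W) shared an H3K4me2 peak of fold 3.16 with YKR075C.

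H3K4me2 alone was no more frequent in short genes (3.58%) than in all genes. In an own peak it was found at 26 short genes, of which 17 are named, and none of the 26 had a single base under H3K4me3. Besides MBB1, the highest folds were those of HOR7 (YMR251W-A, 180 bp, fold 3.15, 231 tags), MPC3 (YGR243W, 441 bp, fold 3.12, 281 tags), DPI8 (fold 2.96) and SPI1 (YER150W, 447 bp, fold 2.95, 278 tags). They were followed by YLR297W (fold 2.95), RGI1 (YER067W, 486 bp, fold 2.89, 281 tags) and YDL241W (fold 2.89). MPC3 encodes a mitochondrial pyruvate carrier subunit, and SPI1 encodes a cell wall protein. The peaks of DPI8 and YLR297W also covered at least 50% of the first 500 bp of LCB3 and YHC1, and 20 of the 26 genes had a peak that did this to no longer gene.

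**Figure D4:**
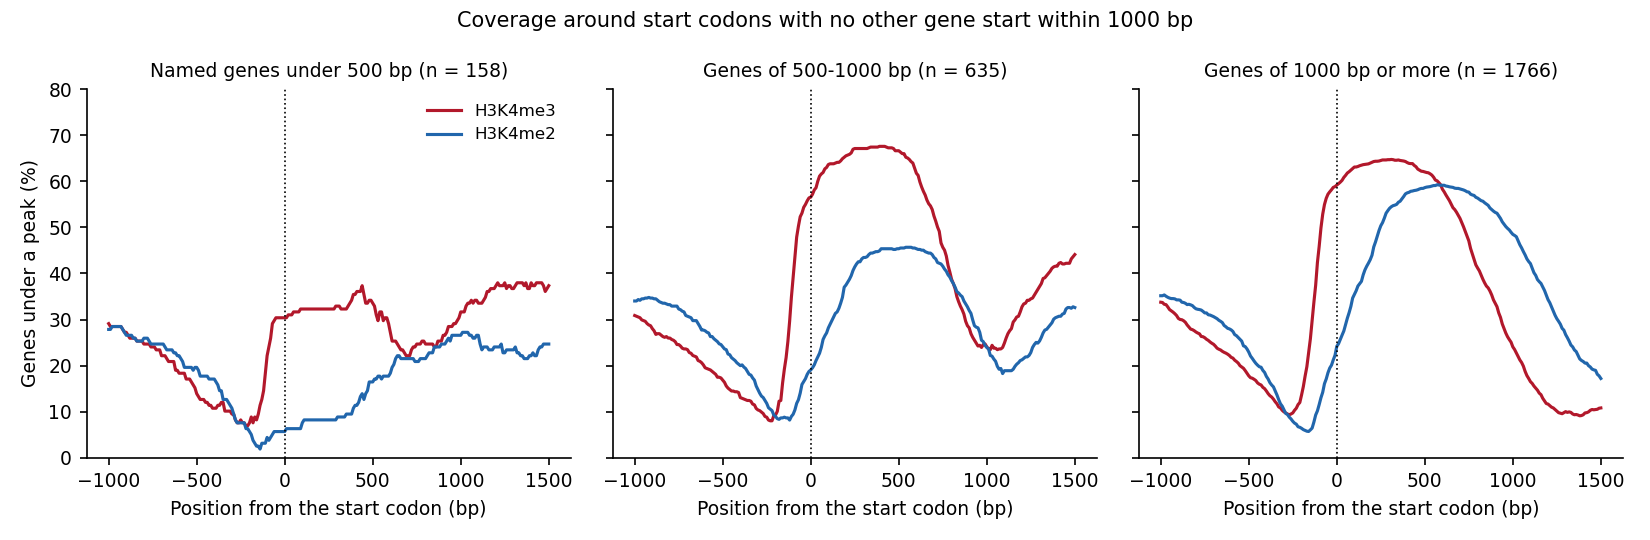
Percent of genes under a peak of each mark (y axis) at each position from the start codon (bp, x axis), where no other start lies within 1000 bp, for 158 named short genes, 635 genes of 500 to 1000 bp and 1766 genes of at least 1000 bp. In the short genes H3K4me3 goes from 6.96% at 220 bp upstream to 32.9% at 300 bp, and in genes of 500 to 1000 bp it reaches 67.6%.

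A short gene with no other start codon within 1000 bp shows the marks away from other starts, though the body of another gene can lie closer. There were 158 such named genes, and H3K4me3 lay over 6.96% of them at 220 bp upstream, 30.4% at the start codon, 32.9% at 300 bp and 33.5% at 500 bp. H3K4me2 lay over 1.90% at 140 bp upstream, 5.70% at the start codon, 8.86% at 300 bp and 16.5% at 500 bp. It reached 27.2% at 1010 bp, where other starts can lie. A position of 500 bp is already beyond the stop codon of every short gene. Over named short genes, isolated or not, the median gap from the stop codon to the next gene was 309 bp. In all 635 genes of 500 to 1000 bp with the same isolation, named or not, H3K4me3 reached 67.6% at 390 bp and H3K4me2 45.7% at 540 bp. Over all 330 unnamed short genes the H3K4me3 profile had its upstream minimum at the start codon itself (13.9%), whereas over the 563 named ones it went from 24.5% at 220 bp upstream to 44.4% at the start codon.

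The state of the neighbour went with that of the short gene, which the peak calls fix in part, since a shared peak can mark both genes. The longer gene was marked in 126 of the 127 H3K4me3 pairs and 30 of the 32 H3K4me2 pairs above. Shared peaks are included in the counts that follow. H3K4me3 was on 39.5% of the 621 short genes whose nearest longer gene had it and on 54 of 272 (19.9%) whose nearest longer gene did not. For H3K4me2 the counts were 83 of 438 (18.9%) and 26 of 455 (5.71%). Where the nearest longer start was at least 1000 bp away, H3K4me3 was still on 71 of 222 (32.0%) and on 19 of 133 (14.3%). In unnamed genes H3K4me3 was on 38 of 200 beside a marked neighbour and on 9 of 130 (6.92%) beside an unmarked one.

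Groups of short genes by role are read here against the 44.8% of named short genes with H3K4me3 and the 13.3% with H3K4me2. The H3K4me3 interval lay wholly above that share for cytosolic ribosomal proteins and wholly below it for the PAU family, and the intervals of the other groups include it. Of the 24 short PAU genes, 19 lie near chromosome ends. There 5.88% of all short genes, PAU genes included, had H3K4me3, a share that the PAU interval includes. Of the 25 short genes of cytosolic ribosomal proteins, which make up part of a list of 136, 20 had H3K4me3 (80%, interval 59.3 to 93.2%), each in an own peak, with a median fold of 3.09. RPL24A and RPL24B, a duplicated pair of 468 bp on chromosome VII, had the highest folds, 3.77 and 3.73. RPS22A (393 bp), RPL38, RPS28A and both RPL41 genes of 78 bp had no base under either mark. H3K4me2 was on 0 of the 25, which allows a share of up to 12%. How reads that match several copies were treated is not given in the sources used, and this touches the RPL24, RPS29 and RPL41 pairs. It also touches other copies and families read below, such as HHT1 with HHT2 and the PAU genes.

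Mitochondrial ribosomal proteins had H3K4me3 at 12 of 27 genes (44.4%, close to the share of all named short genes), of which 8 in own peaks, and H3K4me2 at 0, which allows up to 11.1%. MRPL28 had the highest fold, 3.72. Among 26 genes of the respiratory chain and ATP synthase 11 had H3K4me3 (42.3%) and 4 had H3K4me2 (15.4%), also close to those shares. ATP16, INH1 and QCR6 had both marks, with H3K4me3 folds of 2.99, 3.34 and 3.56. CYC1 (YJR048W, chromosome X, 526335 to 526664), which encodes cytochrome c, had H3K4me2 alone (fold 2.69, 255 tags), and its paralog CYC7 had no H3K4me3. After ATP14, COX5A (YNL052W), a subunit of cytochrome c oxidase, had the highest H3K4me3 fold, 3.63.

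Small subunits of the RNA polymerases had H3K4me3 at 7 of 9 genes (interval 40.0 to 97.2%), with RPA12 (fold 3.8) and RPB8 (fold 3.75, a peak shared with DSC3) highest, and RPC11 and RPB10 without it. Genes for the vacuolar ATPase, which acidifies the vacuole, and for its assembly had it at 4 of 5 (interval 28.4 to 99.5%). VMA9 lay in a peak of fold 3.88 with 1584 tags that also held the starts of ILV6 and STP22, and VMA3 had an own peak of fold 3.47, while the assembly factor VMA21 had none. Both groups had H3K4me2 at 0 genes, which by the same limit of 3 counts allows up to 33.3% and 60%.

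Sm and Lsm proteins, the ring subunits of spliceosomal and decay complexes, had H3K4me3 at 6 of 12 genes (interval 21.1 to 78.9%) and H3K4me2 at LSM3 and LSM8. SMD1 had a fold of 3.45, and LSM7 and SMD2 had no H3K4me3. Small TIM and import proteins of mitochondria had H3K4me3 at 4 of 10 (40%), among them PAM16 (fold 3.74) and TIM12 (fold 3.56, shared). Thiol and metal proteins had it at 6 of 11 (interval 23.4 to 83.3%), and TRX2, a thioredoxin, and GRX2, a glutaredoxin, had H3K4me2 as well.

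The 9 histone genes of the list used here, all of them short, had H3K4me3 at 3 (33.3%, interval 7.49 to 70.1%). This interval includes the 44.8% of named short genes. The variant H2A.Z gene HTZ1 (YOL012C, chromosome XV, 303579 to 303983) had a fold of 3.88 with 327 tags, HTB2 one of 2.99 with 241 tags and HHT2 one of 2.84 with 228 tags. HHT1, which encodes the same histone H3 as HHT2, had no base under either mark. H3K4me2 was on 0 of the 9. HTZ1 is the only one of the 9 that is not a core histone expressed in S phase.

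Chromosome segregation, which the series title names through the spindle assembly checkpoint, was represented by 8 short subunits of the DASH complex and the anaphase-promoting complex. H3K4me3 was on APC11, CDC26 and SPC19 (37.5%, interval 8.52 to 75.5%), with folds of 3.02, 2.94 and 3.28. The SPC19 peak also held the start of VPS64. CDC26 lay under an H3K4me2 peak of fold 3.03 whose summit was 1408 bp from its start. DAD1 and DAD2 had no H3K4me3.

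The PAU genes, a subtelomeric family of cell wall mannoproteins, had neither mark at any of 24 short members, which allows up to 12.5%, and 19 of the 24 lie within 25 kb of a chromosome end. How reads that match several family members were treated is not given, and its part in this absence was not tested. The 4 pheromone genes had neither mark. They are MF(ALPHA)1 and MF(ALPHA)2, which encode alpha-factor, and MFA1 and MFA2, which encode a-factor, the pheromone that a cells make. Among 5 ubiquitin-like proteins SMT3, the yeast SUMO, had H3K4me3 (fold 3.26) and ATG8 and RUB1 did not. Among 9 short genes listed under translocation and oligosaccharyl transferase, SSS1 and SBH1 had it.

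**Figure D5:**
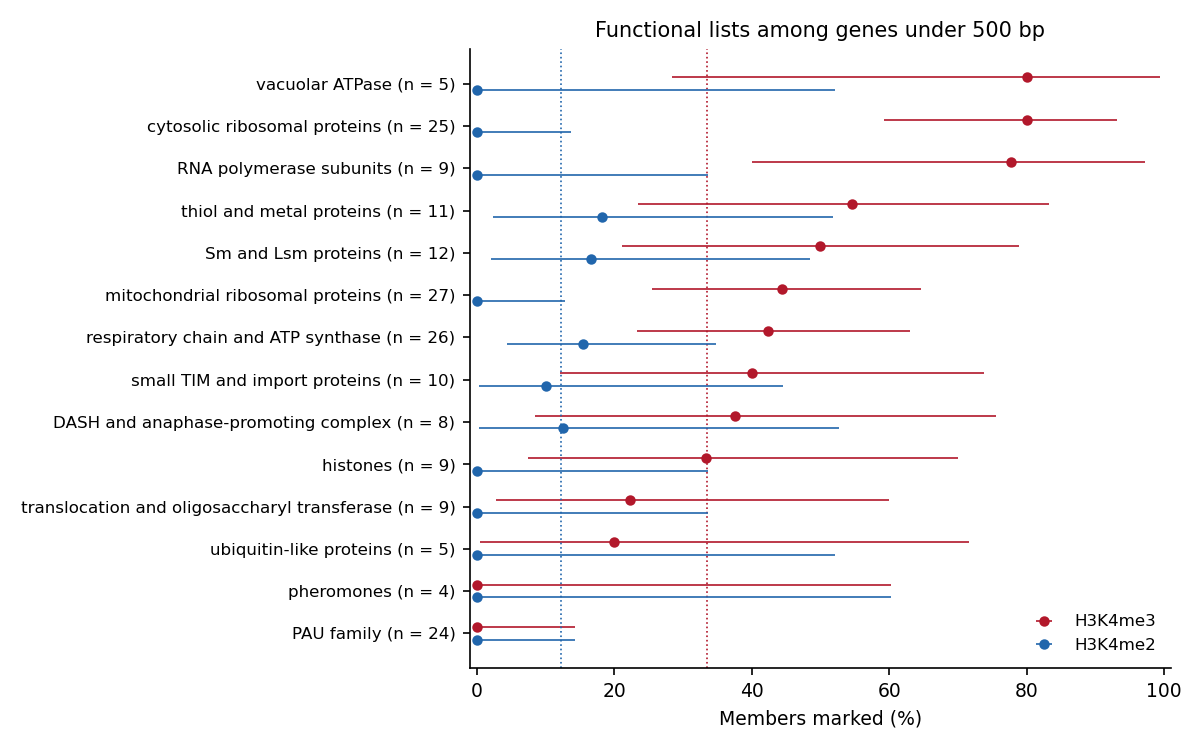
Percent of short members with H3K4me3 or H3K4me2 (x axis) in each of the 14 gene groups (y axis), with exact 95% intervals and dotted lines at the shares over all short genes. Cytosolic ribosomal proteins stand at 80% for H3K4me3 and the PAU family at 0%. In the text the groups are read against the shares of named short genes, which the lines do not show.

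Together the 14 groups hold 184 short genes, of which 79 had H3K4me3 (42.9%) and 10 had H3K4me2 (5.43%, interval 2.64 to 9.77%). The 379 named short genes in no group had H3K4me3 in 173 cases (45.6%) and H3K4me2 in 65 (17.2%, interval 13.5 to 21.3%). H3K4me2 was thus less frequent in the groups by more than the counting intervals, and H3K4me3 was not.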

How the data were processed

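Per the submitters' processing notes, the tools were CASAVA 1.8.2 and the peak caller MACS 1.4.2, and the build was sacCer3 (the R64 assembly). Not given in the sources used here: their settings, the aligner, how reads with several matches were handled, and which control was used for peak calling. The authors deposited 1 peak list per mark with coordinates, which were used as deposited. Per the file headers, each peak has a tag count without normalisation, a p-value column and a fold enrichment, which is a ratio to a background that is not named. All values of the p-value column lie above 50, so this deposited column was taken for the MACS score, a scaled logarithm of p. These values were used to rank or filter peaks within a list.

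Gene positions came from a RefSeq table of R64, and strand from the W or C of the systematic name. Lengths run from start to stop codon (871 of 893 are multiples of 3), introns included. Marked genes are those with 50% or more of the first 500 bp under peaks, or of the full gene where it is shorter. The peak of a gene was called shared when any peak touching this stretch held the start of another gene of at least 500 bp, and own otherwise. Width, fold, tags, score and summit are those of the peak that covers most of the stretch. They were counted once per gene, so a peak over several genes counts for each of them. The 299 short genes with H3K4me3 lay under 279 peaks, and the 109 with H3K4me2 under 106. The input has no list and was not used. Shares and exact intervals were computed with scipy 1.17.1, pandas 2.3.3 and numpy 2.4.6 under Python 3.11.15. Beside a share of 0 stands the limit that 3 counts set. The functions were tested on simulated peaks.

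The members, gene lists and rules were chosen with earlier results of these data known. Genes named are, per mark, the 6 own and 4 shared peaks of highest fold, the 5 shortest genes and the 5 unnamed genes with an own H3K4me3 peak, up to 8 with H3K4me2 alone, the 3 genes on either side of 500 bp and, per list, the 2 of highest H3K4me3 fold and the 2 longest without it. Others, such as further list members with H3K4me2 or without H3K4me3, and the second copies and neighbours of these genes, were named after their values were seen. A planned count of promoter motifs was not run, since no genome sequence was used here.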

Additional observations from a re-analysis of the deposited data

How the results depend on the processing

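H3K4me3 was more frequent than H3K4me2 over short genes, and over named than unnamed ones, under all 11 peak and gene settings. H3K4me2 was more frequent over named genes in 10, the exception being the start codon (9.95% of named and 10.9% of unnamed genes). Of 86 alternative values 42 stayed within the interval of the reported one, among them all values without genes near chromosome ends or without overlapping genes. The others follow in the order all, named and unnamed short genes, then the share of marked genes under a shared peak. With a score of at least 100, H3K4me3 was at 25.4% and 33.9%, with 43.6% shared, and H3K4me2 at 7.95% and 8.35%, with 42.3% shared. With folds from the median of the list up, H3K4me3 was at 19.8%, 27.7% and 6.36%, with 41.8% shared, and H3K4me2 at 7.06%, 7.82% and 5.76%. With as many H3K4me3 as H3K4me2 peaks, H3K4me3 was at 24.7%, 33.2% and 10.3%, with 43.9% shared. With 500 bp around summits, H3K4me3 was at 24.5%, 34.3% and 7.88%, with 4.57% shared, and H3K4me2 at 7.06%, 8.17% and 5.15%, with 1.59% shared. With 1 base covered, all and unnamed genes were at 37.2% and 20.9% for H3K4me3 and at 14.8% and 14.5% for H3K4me2. With 100% covered, H3K4me3 was at 29.6% of all and 8.79% of unnamed genes, and H3K4me2 at 8.40%, 9.24% and 6.97%. Under 400 bp, H3K4me3 was at 26.5% and 37.2%, with 41.0% shared, and H3K4me2 at 9.74% and 10.3%. The shared part was 42.1% for H3K4me3 when any gene start counted, 18.1% and 13.8% for H3K4me3 and H3K4me2 with neighbours of at least 1000 bp, and 51.4% for H3K4me2 with the wider definition chosen after seeing the data. The cause of these changes was not tested. No paired analysis was possible because each mark has 1 library and no replicate.

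The limits are those of peak lists. A peak of at least 382 bp cannot resolve a gene of 100 bp from its surroundings, own peaks over short genes lay nearer to the lowest score than those over longer genes, and nothing is known of signal below it. Stretches without nucleosomes give few fragments after MNase digestion whatever their modification. Named genes are mostly those that have been studied, so the name is no measure of function.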
